A study of Mus musculus with 47 samples.

Results

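The WNT feedback targets and R-spondin described here are 10 listed genes, Axin2, Sp5, Nkd1, Lgr5, Lef1, Tcf7, Notum, Rnf43, Znrf3 and Rspo1, of 35856 gene symbols measured. They were chosen by name, with no threshold on any value, but with earlier results of these data known. All 10 were found once each among the symbols. Their levels are given as TPM (transcripts per 1000000), a unit that corrects for transcript length and library depth.

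Polyadenylated RNA was sequenced from 47 libraries of mouse embryonic stem cells (ESC) and of neural progenitor cultures (NPC) derived from them. Every line was on the C57BL/6 background and carried Tir1, the plant F-box protein that lets auxin direct tagged proteins to destruction. SUZ12, MTF2 or JARID2 carried the auxin-inducible degron in 1 line each, and the untagged line carried Tir1 alone. Each line was measured as ESC and as NPC, with and without auxin, which gives 16 groups of 3 libraries, except for SUZ12 NPC with auxin, which has 2. Auxin was 50 µM indole-3-acetic acid, present for 12 hours in ESC and for 5 days in NPC. ESC were grown in N2B27 with 100 U/mL LIF, 3 µM CHIR99021, an inhibitor of the kinase GSK3, and 1 µM PD0325901, an inhibitor of the kinase MEK. NPC received 10 ng/mL bFGF for 72 hours and then 500 nM SAG, an agonist of the Hedgehog receptor component Smoothened, for 48 hours, so the stages differ in medium as well as in cell state. Replicates are biological per the series design.

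WNT proteins bind Frizzled receptors with LRP co-receptors at the cell surface, which stops the destruction complex from marking β-catenin for breakdown, and β-catenin then acts with TCF and LEF factors at target genes. Many of these targets restrain the pathway at different steps, while R-spondins acting through LGR receptors remove a brake on Frizzled, and GSK3 inhibition stabilises β-catenin without a ligand. The Polycomb complex PRC2, in which SUZ12 is a core protein, marks silent developmental genes with H3K27me3, and MTF2 and JARID2 are accessory subunits of separate PRC2 forms. Depth ranged from 3.24 to 8.71 M reads per library (M, 1000000), recovered as whole reads from the TPM steps, which leaves few reads for genes near 1 TPM. The degron acts on protein, so the mRNA of the tagged genes does not check its loss; Suz12 mRNA averaged 163 ± 5.09 TPM in SUZ12 NPC with auxin (SD, n = 2) and 77.8 ± 1.5 TPM without it (SD, n = 3).

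The sequence just before the annotated start is shown for 2 genes that moved together in NPC, Sp5 and Rspo1, and for Axin2, which did not move with them, because CG dinucleotides are a known feature of promoters bound by PRC2. The sequences are from RefSeq on GRCm38.p6, 250 bases each, on the strand of the gene, which is the plus strand for all 3, and capitals mark CG. They lie at chr2:70474673-70474922 (Sp5), chr4:124986180-124986429 (Rspo1) and chr11:108920099-108920348 (Axin2).
Sp5: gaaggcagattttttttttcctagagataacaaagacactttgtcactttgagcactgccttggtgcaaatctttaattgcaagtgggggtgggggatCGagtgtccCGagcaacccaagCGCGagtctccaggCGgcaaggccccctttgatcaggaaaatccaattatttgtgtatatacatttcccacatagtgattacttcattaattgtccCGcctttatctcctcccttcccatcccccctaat
Rspo1: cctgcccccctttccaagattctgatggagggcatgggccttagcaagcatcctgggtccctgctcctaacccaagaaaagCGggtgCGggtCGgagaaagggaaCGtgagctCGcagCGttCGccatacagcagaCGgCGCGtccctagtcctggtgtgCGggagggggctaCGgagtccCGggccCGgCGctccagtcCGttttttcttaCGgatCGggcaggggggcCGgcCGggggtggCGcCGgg
Axin2: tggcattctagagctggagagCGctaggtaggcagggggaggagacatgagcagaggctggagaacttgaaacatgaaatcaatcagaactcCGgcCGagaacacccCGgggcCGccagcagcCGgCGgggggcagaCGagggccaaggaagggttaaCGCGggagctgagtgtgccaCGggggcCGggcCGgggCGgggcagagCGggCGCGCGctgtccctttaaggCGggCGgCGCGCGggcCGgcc
The Sp5 sequence held 6 CG, the Rspo1 sequence 22 and the Axin2 sequence 24, against a median of 6 over the 32851 promoters of the table. TCF factors bind sites resembling CTTTGAT and CTTTGAA, and these 7-base words were searched on both strands in the 250 bases before each start. Of the 7 members with a sequence in the table, Sp5 held 1 match. It was CTTTGAT on the strand of the gene, 104 to 98 bases before the start. Axin2, Lef1 and Rspo1 held none. Nkd1 and Rnf43 held none either, but their sequences lie inside these genes as annotated in GENCODE M21, so the sequence before the first start there was not searched. The Tcf7 sequence is not read here, because it may lie within a longer form of the gene, although it shares no base with the Tcf7 coding exons of GENCODE M21. At least 1 match occurred in 7.48% of all promoters of that length. Lgr5, Notum and Znrf3 are named only.

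At baseline the pathway genes split by stage. Untagged NPC without auxin had lower levels than untagged ESC without auxin for 6 members (Axin2, Sp5, Lef1, Tcf7, Notum and Rspo1) and higher levels for 2 (Nkd1 and Lgr5), while Rnf43 and Znrf3 were not called. Of all 17760 genes tested, 76.1% were called in this comparison, 47.6% higher and 28.5% lower, so a call alone is common. Scaling by median-of-ratios gave 38.3% higher and 37.4% lower and took the median gene, 0.28 higher on the log2 scale, to 0, while the same 6 members stayed lower and the same 2 higher. Here called means an adjusted p (Benjamini-Hochberg) below 0.05 by limma on log2(TPM + 0.5), and every log2 fold change below is on that scale, which understates changes of low genes.

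Notum, a secreted enzyme that strips the lipid from WNT proteins and inactivates them, had 0.165, 0.0952 and 0.398 TPM in untagged NPC without auxin, against 83.4, 86.9 and 90.1 TPM in untagged ESC without auxin. The log2 fold change was -6.94 ± 0.16 (SE, adjusted p = 8.5e-31). Sp5, a zinc-finger transcription factor and direct WNT target, had 0.154, 0.535 and 0.187 TPM in these NPC, against 28.2, 32.7 and 28.4 TPM in these ESC, a log2 fold change of -5.28 ± 0.27 (SE, adjusted p = 7.79e-20). For these 2 genes the NPC libraries lay far below the ESC libraries, with no overlap, and the NPC values rest on 1 to 4 reads per library. Tcf7 and Lef1, the DNA-binding partners of β-catenin, remained detectable in NPC at 20.8 and 1.20 TPM on average, which is 26.2% and 15.7% of their ESC levels. Axin2, a scaffold of the destruction complex and a widely used WNT reporter gene, averaged 17.9 ± 0.58 TPM in NPC and 46 ± 1.67 TPM in ESC (SD, n = 3 each), a log2 fold change of -1.34 ± 0.10 (SE, adjusted p = 1.05e-14). Rspo1, a secreted R-spondin, had 0.866, 0.2 and 0.627 TPM in NPC, against 1.61, 1.52 and 1.34 TPM in ESC, and the groups did not overlap. Its call (log2 fold change -0.95, adjusted p = 0.00707) was lost without untagged NPC untreated replicate 2 (-0.68, adjusted p = 0.0746).

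Nkd1, which binds Dishevelled and dampens WNT signalling, went the other way, with 11.9, 12.8 and 12.5 TPM in untagged NPC without auxin, against 0.865, 1.37 and 0.752 TPM in untagged ESC without auxin. Its log2 fold change was 3.13 ± 0.19 (SE, adjusted p = 3.28e-17). Lgr5, an R-spondin receptor and stem cell marker of several adult epithelia, had 2.68, 2.62 and 2.74 TPM in NPC and 0 reads in all 3 ESC libraries, so it was at least 30.2-fold higher in NPC against a floor of 3 reads over the group. The 2 negative regulators at the membrane, the ubiquitin ligases Znrf3 and Rnf43 that remove Frizzled receptors, showed no called difference. Znrf3 averaged 15 TPM in NPC and 15.7 TPM in ESC, with a 95% interval of the log2 difference of -0.26 to 0.13, although scaling by median-of-ratios called it lower (-0.40, adjusted p = 0.000259). Rnf43 had 0.18, 0 and 0.145 TPM in NPC, against 0.238, 0.151 and 0.388 TPM in ESC, on 0 to 5 reads per library.

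**Figure D1:**
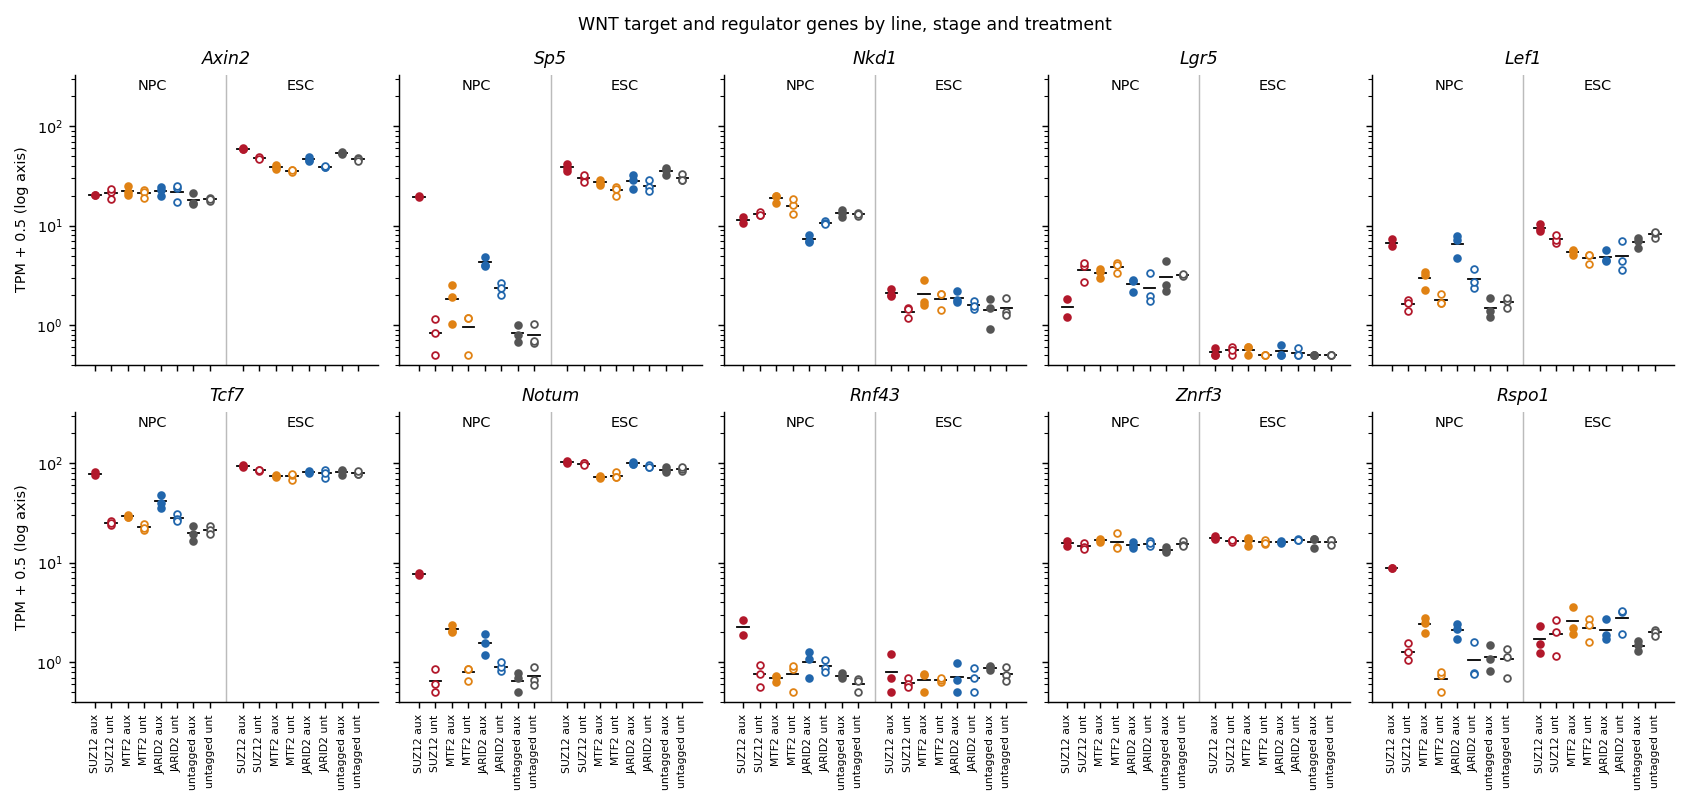
TPM + 0.5 on a log axis for the 10 genes in every library, with NPC left of ESC, lines in the order SUZ12, MTF2, JARID2 and untagged, filled points with auxin, open points untreated, and a black line at each group mean. In SUZ12 NPC with auxin, Sp5 (18.7 and 19.5 TPM), Notum (7.0 and 7.45 TPM) and Rspo1 (8.24 and 8.41 TPM) stood above every other NPC library, while Axin2 and Znrf3 lay among them.

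In SUZ12 NPC, auxin was followed by higher levels of 6 of the 10 members, Sp5, Notum, Rspo1, Lef1, Tcf7 and Rnf43, and a lower level of Lgr5. Axin2, Nkd1 and Znrf3 were not called. Of all 16469 genes tested, 56.9% were called in this comparison, 23.9% higher and 33% lower, or 30.5% and 26.1% with median-of-ratios scaling, which moved the median gene from -0.10 to 0.02 on the log2 scale. Rnf43 passed the filter (1 TPM in 2 libraries) through the SUZ12 auxin libraries alone; among the other 9 members 5 were called higher and 1 lower. In bulk RNA, more or fewer cells that express a gene and more or less RNA per cell cannot be told apart.

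Of the nuclear factors, Sp5 had 19.5 and 18.7 TPM in SUZ12 NPC with auxin, against 0.645, 0 and 0.335 TPM in SUZ12 NPC without it, or 98 and 107 reads against 4, 0 and 2. The auxin libraries stood far above the untreated ones, with a log2 fold change of 4.65 ± 0.40 (SE, adjusted p = 2.7e-09) and a ratio of mean TPM of 58.4. Tcf7 had 80.2 and 76.3 TPM with auxin, against 23.5, 25.5 and 24.6 TPM without it (log2 fold change 1.65 ± 0.13, SE, adjusted p = 3.84e-10). Lef1 had 5.73 and 6.77 TPM with auxin, against 0.882, 1.29 and 1.16 TPM without it (log2 fold change 2.07 ± 0.26, SE, adjusted p = 6.57e-07). Neither Tcf7 nor Lef1 overlapped between treatments. Set against the ESC of the same line and treatment, the mean level in SUZ12 NPC with auxin was 83.2% for Tcf7, 69.4% for Lef1 and 50.3% for Sp5, while in SUZ12 NPC without auxin these were 28.9%, 16.4% and 1.11% of untreated ESC.

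Of the inhibitors, Notum had 7.0 and 7.45 TPM in SUZ12 NPC with auxin, against 0.344, 0.099 and 0 TPM in SUZ12 NPC without it, on 66 and 80 reads against 4, 1 and 0. The groups did not overlap (log2 fold change 3.61 ± 0.30, SE, adjusted p = 1.61e-09), and the auxin level was 7.08% of that in SUZ12 ESC with auxin. Rnf43 had 2.16 and 1.36 TPM with auxin, against 0.0627, 0.433 and 0.26 TPM without it (log2 fold change 1.59 ± 0.35, SE, adjusted p = 0.000525), again without overlap. Because Rnf43 passed the filter through these auxin libraries alone, where it is high, its test and separation are not independent of the filter. The other inhibitors were not called. Axin2 had 19.7 TPM in each SUZ12 NPC library with auxin, against 21.4, 23.0 and 18.1 TPM without it, and the 95% interval of the log2 difference ran from -0.38 to 0.24. For Nkd1 the values were 11.6 and 10.0 TPM with auxin against 12.4, 13.1 and 12.3 TPM without it, and although these did not overlap, the log2 difference of -0.21 was not called (adjusted p = 0.159, 95% interval -0.48 to 0.05). Znrf3 had 16.1 and 14.1 TPM with auxin, against 15.2, 13.9 and 13.2 TPM without it, and these groups overlapped (95% interval of the log2 difference -0.16 to 0.34); voom on the recovered reads called it higher (0.23, adjusted p = 0.0337).

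Rspo1 and Lgr5, the R-spondin and the R-spondin receptor among the members, moved in opposite directions. Rspo1 had 8.24 and 8.41 TPM in SUZ12 NPC with auxin, against 0.543, 1.04 and 0.751 TPM in SUZ12 NPC without it (log2 fold change 2.81 ± 0.36, SE, adjusted p = 8.42e-07). Both auxin libraries exceeded each of the 24 ESC libraries as well, whose highest value was 3.10 TPM, whereas the means of Sp5, Tcf7, Lef1 and Notum stayed below those of SUZ12 ESC with auxin. Lgr5 had 0.707 and 1.32 TPM with auxin, against 2.23, 3.39 and 3.72 TPM without it, on 8 and 17 reads against 31, 41 and 50. The Lgr5 groups did not overlap, and the log2 fold change was -1.26 ± 0.29 (SE, adjusted p = 0.000877).

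Cell type markers differed in the same libraries. All 5 ESC markers (Pou5f1, Nanog, Zfp42, Esrrb and Tfcp2l1) were called higher in SUZ12 NPC with auxin, with a summed level of 535 to 546 TPM, against 11.0 to 15.4 TPM in SUZ12 NPC without it and 2903 to 2949 TPM in SUZ12 ESC with auxin. All 6 neural progenitor markers, all 5 ventral neural tube markers and all 5 neuron markers were called lower, and the neuron sum was 330 to 373 TPM with auxin and 3390 to 3564 TPM without it. Mesoderm markers summed to 128 to 131 TPM with auxin, nearly all of it Meox1 (124 TPM on average), and to 5.14 to 9.79 TPM without it, while T averaged 0.782 and 0.467 TPM in these groups and Mesp1 was at 0 in every auxin library. Endoderm sums were 42.1 to 42.2 TPM with auxin and 26.4 to 33.5 TPM without it. Of 4 endoderm markers tested 3 were called higher and 1 lower. Neural crest sums were 10.6 to 11.4 TPM with auxin and 3.47 to 3.84 TPM without it. The part of these cell types in the levels of the 10 genes was not tested.

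**Figure D2:**
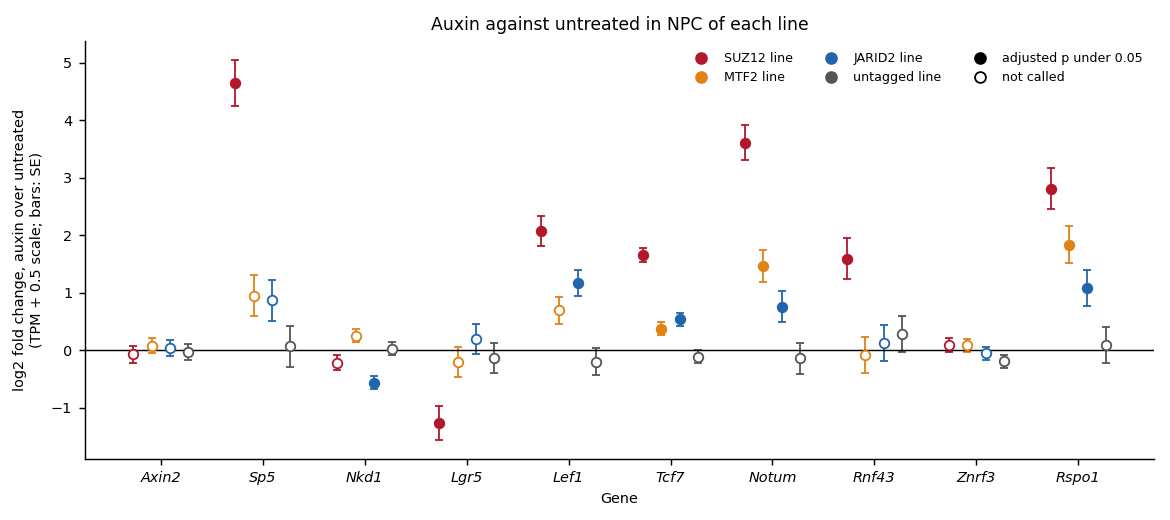
Log2 fold change of auxin over untreated in NPC (log2(TPM + 0.5) scale, vertical axis) for each gene and line, with bars of 1 SE and filled points for an adjusted p under 0.05. The SUZ12 line had the largest called rise for Sp5 (4.65), Notum (3.61), Rspo1 (2.81), Lef1 (2.07) and Tcf7 (1.65), and all points of the untagged line are open.

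In MTF2 NPC auxin was followed by called rises of 3 members, Notum, Rspo1 and Tcf7, and no called fall, where 8.14% of all 16469 genes were called (5.03% higher, 3.11% lower, or 4.38% and 4.89% with median-of-ratios scaling). Notum had 1.52, 1.56 and 1.88 TPM in MTF2 NPC with auxin, against 0.357, 0.362 and 0.14 TPM in MTF2 NPC without it (log2 fold change 1.46 ± 0.27, SE, adjusted p = 0.00183). That call was lost in the fit of the compared groups alone (adjusted p = 0.0598). Rspo1 had 1.45, 2.30 and 1.98 TPM with auxin, against 0.25, 0 and 0.295 TPM without it (log2 fold change 1.83 ± 0.32, SE, adjusted p = 0.00109), but on 17 reads against 2, a ratio of 9.43 with a counting interval of 2.24 to 84.2. Neither gene overlapped between treatments. Tcf7 had 28.6, 28.3 and 29.7 TPM with auxin, against 24.1, 20.8 and 21.6 TPM without it, a log2 fold change of 0.38 ± 0.11 (SE, adjusted p = 0.045) that was lost without untreated replicates 2 or 3 or auxin replicates 1, 2 or 3 (adjusted p 0.0802 to 0.155), without the filter (0.0741) and by voom on the recovered reads (0.0897). Sp5, with 0.518, 2.05 and 1.41 TPM with auxin against 0.67, 0.679 and 0 TPM without it, and Lef1, with 2.70, 2.91 and 1.75 TPM against 1.55, 1.18 and 1.18 TPM, were not called (adjusted p = 0.113 and 0.0696). Each of these was called without 1 auxin library, Sp5 without replicate 1 (adjusted p = 0.0378) and Lef1 without replicate 3 (adjusted p = 0.0425). The differences of Axin2 (0.08), Nkd1 (0.26), Lgr5 (-0.21), Rnf43 (-0.08) and Znrf3 (0.08) were not called either, and the treatments overlapped for each of these 5. Of the ESC markers 2 of 5 were called higher, with sums of 51.5 to 62.3 TPM in MTF2 NPC with auxin and 25.5 to 31.9 TPM without it. Of 4 endoderm markers tested 3 were higher, with sums of 52.9 to 65.6 TPM against 42.7 to 47 TPM, and 1 of 3 mesoderm markers. Lower were 3 of 5 neuron, 3 of 6 neural progenitor and 2 of 5 ventral neural tube markers, with 1 of the last list higher, and the part of all these was not tested.

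In JARID2 NPC auxin was followed by called rises of 4 members, Lef1, Tcf7, Rspo1 and Notum, and a called fall of Nkd1, where 25% of all genes were called (9.28% higher, 15.7% lower, or 13.5% and 13.3% with median-of-ratios scaling). Lef1 had 6.63, 7.39 and 4.23 TPM in JARID2 NPC with auxin, against 1.86, 2.23 and 3.12 TPM in JARID2 NPC without it (log2 fold change 1.17 ± 0.23, SE, adjusted p = 0.000677). Tcf7 had 47.7, 39.4 and 35.2 TPM with auxin, against 30.5, 27.1 and 25.5 TPM without it (log2 fold change 0.54 ± 0.11, SE, adjusted p = 0.00114). Nkd1 had 6.27, 6.41 and 7.60 TPM with auxin, against 10.7, 10.2 and 9.84 TPM without it (log2 fold change -0.57 ± 0.11, SE, adjusted p = 0.000744). None of these 3 genes overlapped between treatments. Sp5 also separated, with 3.5, 4.38 and 3.40 TPM with auxin against 2.17, 1.49 and 1.86 TPM without it, but its log2 difference of 0.87 was not called (adjusted p = 0.0857); it was called with a pseudocount of 1, in a fit of the compared groups alone and by voom (adjusted p 0.0151 to 0.0434). Axin2 (0.04), Lgr5 (0.19), Rnf43 (0.12) and Znrf3 (-0.05) were not called, and the treatments overlapped for each of these 4.

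The rises of Rspo1 and Notum in JARID2 NPC were less secure. Rspo1 had 1.23, 1.91 and 1.67 TPM with auxin, against 1.10, 0.279 and 0.261 TPM without it (log2 fold change 1.08, adjusted p = 0.0159), and lost its call without untreated replicates 2 or 3 or auxin replicate 2 (adjusted p 0.0629 to 0.0757) and in the fit of the compared groups alone (0.0728). Notum had 1.05, 1.43 and 0.681 TPM with auxin, against 0.315, 0.399 and 0.496 TPM without it (log2 fold change 0.76, adjusted p = 0.0453), and lost its call without any 1 untreated library or auxin replicates 1 or 2 (adjusted p 0.0595 to 0.182), with the replicate block (0.0504), with a pseudocount of 0.1 (0.155) and in the compared groups alone (0.178). Both genes kept auxin above untreated in every library. All 5 ESC markers were called higher in JARID2 NPC with auxin, with sums of 159 to 178 TPM, against 48.1 to 62.8 TPM without it, and all 5 neuron markers were called lower, with sums of 615 to 700 TPM against 1944 to 2335 TPM. All 5 ventral neural tube markers, 3 of 6 neural progenitor markers and 1 of 4 endoderm markers were lower as well, with 1 neural progenitor marker higher, and the part of these was not tested.

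In the untagged line, auxin for the same 5 days called 0 of the 10 members and 0% of all genes by limma. At an unadjusted p under 0.05 there were 0 members and 1180 genes, and voom called 0 members and 18 genes. Sp5 had 0.174, 0.289 and 0.51 TPM in untagged NPC with auxin, against 0.154, 0.535 and 0.187 TPM without it, and Tcf7 had 23.1, 16.1 and 19.0 TPM against 22.7, 20.9 and 18.9 TPM. Both genes overlapped between treatments, and over the 10 members the log2 differences ran from -0.20 (Lef1) to 0.28 (Rnf43).

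The auxin effect beyond that of the untagged line was tested as a difference of log2 fold changes, with the same untagged libraries in each test. In SUZ12 NPC 7 members were called (43.5% of all genes were, 18.8% higher and 24.7% lower, or 23.8% and 20.2% with median-of-ratios scaling), Sp5 by 4.58, Notum by 3.75, Rspo1 by 2.71, Lef1 by 2.27, Tcf7 by 1.77, Rnf43 by 1.32 and Lgr5 by -1.13, or 6 of the 9 that pass the filter without the SUZ12 auxin libraries, Rnf43 being left out. In JARID2 NPC 3 were called (9.04% of all genes, 3.1% higher and 5.94% lower), Lef1 by 1.37, Tcf7 by 0.65 and Nkd1 by -0.60. In MTF2 NPC Notum was called by 1.60 (1.4% of all genes, 1.07% higher, or 0.82% higher and 0.613% lower after median-of-ratios scaling), and Rspo1, at 1.74, was not (adjusted p = 0.0573). Leaving out 10 of the 12 libraries in turn, all but untagged auxin replicate 3 and MTF2 untreated replicate 1, ended the Notum call in MTF2 NPC (adjusted p 0.051 to 0.0975), as did a pseudocount of 0.1, the compared groups alone and voom (0.107 to 0.18). Rspo1 was called there without untagged untreated replicate 2 and with a pseudocount of 1 (adjusted p = 0.0407 and 0.0498). In the SUZ12 line the Rnf43 call ended without untagged untreated replicates 1 or 3 or SUZ12 untreated replicate 1 (adjusted p 0.051 to 0.0737), with a pseudocount of 0.1 (0.181) and by voom (0.108), and the Lgr5 call without untagged auxin replicate 2, SUZ12 untreated replicate 3 or SUZ12 auxin replicate 1 (adjusted p 0.0593 to 0.153). Znrf3 was called there with median-of-ratios scaling and by voom (both 0.40, adjusted p = 0.0344 and 0.011). The Nkd1 call in the JARID2 line ended without replicate 1 of untagged auxin, JARID2 untreated or JARID2 auxin (adjusted p 0.0500 to 0.0592).

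The degron lines differed in the size of the auxin effect. The rise of Sp5 in the SUZ12 line exceeded that in the MTF2 line by 3.70 ± 0.54 (SE, adjusted p = 1.17e-05) and that in the JARID2 line by 3.78 ± 0.54 (SE, adjusted p = 1.48e-05), both on the log2 scale. Notum and Tcf7 also differed in each of these tests, by 2.15 and 1.28 against the MTF2 line and by 2.85 and 1.11 against the JARID2 line. For Lef1 the SUZ12 line exceeded the MTF2 line by 1.37 (adjusted p = 0.00309), whereas its difference from the JARID2 line was not called except under median-of-ratios scaling, under voom and without JARID2 untreated replicate 1 or auxin replicate 2 (adjusted p 0.0073 to 0.0415). The starting levels differed too. Lef1 averaged 1.11 TPM in SUZ12 NPC and 2.40 TPM in JARID2 NPC without auxin, and 6.25 and 6.08 TPM with it. Sp5 averaged 0.327 and 1.84 TPM in the same lines without auxin, and 19.1 and 3.76 TPM with it. Against the MTF2 line 7 members were called, where 43% of all genes were (15.7% higher and 27.2% lower, or 22.9% and 19.4% with median-of-ratios scaling), and 6 without Rnf43. Against the JARID2 line 6 were called, or 5 without Rnf43, where 31.1% of all genes were (13.5% higher and 17.6% lower), and both tests share the SUZ12 libraries. Between the MTF2 and JARID2 lines 1 member was called, where 9.64% of all genes were (7.82% higher, or 5.55% with median-of-ratios scaling): Nkd1, whose auxin effect was 0.82 ± 0.16 higher in the MTF2 line (SE, adjusted p = 0.00182).

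In ESC 12 hours of auxin moved the members little. Axin2 had 59.4, 58.2 and 58.6 TPM in SUZ12 ESC with auxin, against 47.0, 48.2 and 46.5 TPM in SUZ12 ESC without it, a rise of 0.31 ± 0.05 on the log2 scale (SE, adjusted p = 0.000648) with no overlap. It was the 1 member called of 8 tested in that line, where 6.83% of all genes were called and 5.89% were higher (2.67% higher and 4.92% lower after median-of-ratios scaling); Lgr5 and Rnf43 did not pass the filter in ESC. Sp5 had 35.1, 37.5 and 41.1 TPM with auxin, against 29.7, 26.7 and 31.6 TPM without it, without overlap, and its difference of 0.36 had an adjusted p of 0.0551, which passed the threshold with a replicate block, in a fit of the compared groups alone and by voom (0.0322 to 0.0392). Nkd1, Lef1, Tcf7, Notum and Znrf3 also lay higher in every auxin library than in any untreated one of this line, by 0.06 to 0.62 on the log2 scale, and none of these was called. How many of all genes separated in this way was not counted, so the separation is not shown to be particular to the members. The median gene was 0.09 higher in this comparison, and with median-of-ratios scaling these 5 differences were -0.04 for Notum, 0.003 for Znrf3, 0.04 for Tcf7, 0.29 for Lef1 and 0.54 for Nkd1.

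Axin2 lay higher with auxin in the other lines too, including the untagged one. It had 48.9, 45.3 and 43.9 TPM in JARID2 ESC with auxin, against 38.7, 38.1 and 38.9 TPM without it (log2 fold change 0.25, adjusted p = 0.0232), the 1 member called where 0.298% of all genes were, 0.113% higher. That call was lost without any 1 untreated library or auxin replicates 1 or 2 (adjusted p 0.0555 to 0.134), in the compared groups alone (0.694) and by voom (0.0714). In untagged ESC Axin2 had 53.3, 51.9 and 54.4 TPM with auxin, against 47.7, 45.9 and 44.3 TPM without it, a log2 difference of 0.21 that was not called (adjusted p = 0.101). In MTF2 ESC it had 36.2, 38.2 and 39.7 TPM with auxin, against 36.1, 33.7 and 35.8 TPM without it (0.11, adjusted p = 0.393). No member was called by limma or voom in MTF2 ESC (1.09% of all genes) or in untagged ESC (0.212%), where 2 and 1 members had an unadjusted p under 0.05.

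The ESC effect on Axin2 was not called beyond that of the untagged line in any degron line. Tested as a difference of log2 fold changes, 0 members were called by limma and by voom in SUZ12 ESC (0.192% of all genes), in MTF2 ESC (0.00662%) and in JARID2 ESC (0%), and 1, 0 and 0 members had an unadjusted p under 0.05.

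**Figure D3:**
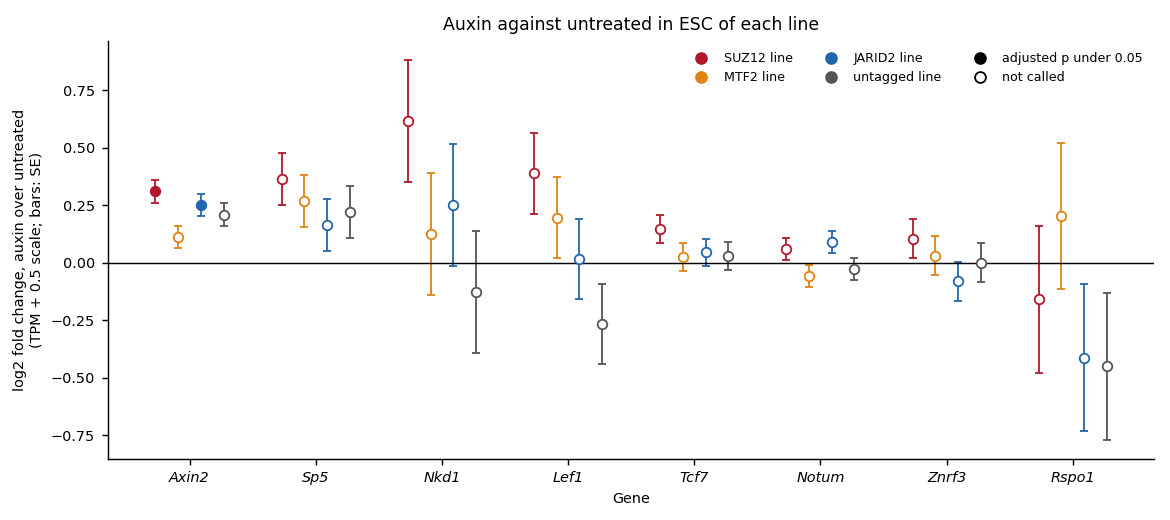
Log2 fold change of auxin over untreated in ESC (log2(TPM + 0.5) scale, vertical axis) for the 8 genes tested, with bars of 1 SE and filled points for an adjusted p under 0.05. Axin2 is above 0 in all 4 lines and called in the SUZ12 line (0.31) and the JARID2 line (0.25); no other gene is called.

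Without auxin the degron lines already differed from the untagged line in some members. In untreated MTF2 ESC 4 members were lower than in untreated untagged ESC, where 15.7% of all genes were called and 8.39% were lower. Axin2 had 36.1, 33.7 and 35.8 TPM in untreated MTF2 ESC, against 47.7, 45.9 and 44.3 TPM in untreated untagged ESC (log2 fold change -0.38 ± 0.05, SE, adjusted p = 8.88e-06). Lef1 had 3.58, 4.61 and 4.59 TPM against 6.91, 7.99 and 8.05 TPM in the same groups (log2 fold change -0.78 ± 0.17, SE, adjusted p = 0.00317). Sp5 (-0.42) and Notum (-0.22) completed the called genes, with Sp5 not called without untagged replicate 2 or MTF2 replicate 1 (adjusted p = 0.0685 and 0.0786), and Notum not called in the compared groups alone (0.0534). In untreated JARID2 ESC Axin2 (-0.25) and Lef1 (-0.76) were lower, where 6.31% of all genes were called and 3.22% were lower, and Lef1 was not called without JARID2 replicate 3 (adjusted p = 0.0671). Neither was called in the compared groups alone (adjusted p = 0.0662 for Axin2 and 0.105 for Lef1).

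In untreated JARID2 NPC the called members were higher than in untreated untagged NPC, and only Lef1 was called in this line at both stages. Untreated JARID2 NPC had 2.17, 1.49 and 1.86 TPM of Sp5, against 0.154, 0.535 and 0.187 TPM in untreated untagged NPC (log2 fold change 1.59 ± 0.36, SE, adjusted p = 0.00237), with no overlap. Lef1 (0.76) and Tcf7 (0.40) were higher there too, where 23.8% of all genes were called and 11.8% were higher. Lef1 was not called without untagged replicate 2 or JARID2 replicate 3 (adjusted p = 0.0848 and 0.11) or in the compared groups alone (0.0545), nor Tcf7 without untagged replicate 3 or JARID2 replicate 1 (adjusted p = 0.0679 and 0.0649). Voom also called Axin2 (0.26, adjusted p = 0.0472) and Rnf43 (1.99, adjusted p = 0.0232) higher. Summed ESC markers were 48.1 to 62.8 TPM in untreated JARID2 NPC and 17.2 to 20.6 TPM in untreated untagged NPC, and all 5 were called higher, as were 4 of 4 endoderm markers tested. All 5 neuron markers were lower, with sums of 1944 to 2335 TPM against 3501 to 3761 TPM, and so were 3 of 6 neural progenitor and 3 of 5 ventral neural tube markers, with the other 2 of the last list higher; the part of these was not tested. No member was called by limma in untreated SUZ12 ESC (1.65% of all genes), untreated SUZ12 NPC (0.814%) or untreated MTF2 NPC (8.76%), where 1, 0 and 1 members had an unadjusted p under 0.05; voom called Notum higher in untreated SUZ12 ESC (0.21, adjusted p = 0.00431) and none in the other 2.

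The 16 groups ranked differently from gene to gene. The order of group means put 8 ESC groups above every NPC group for Notum, with SUZ12 NPC with auxin next at 7.22 TPM, followed by MTF2 NPC with auxin at 1.65 TPM and JARID2 NPC with auxin at 1.05 TPM, and these 3 did not overlap their neighbours. Sp5 had the same ESC groups on top, then SUZ12 NPC with auxin at 19.1 TPM and JARID2 NPC with auxin at 3.76 TPM. Both lay apart from the next lower group. However, SUZ12 NPC with auxin (18.7 to 19.5 TPM) overlapped the lowest ESC group, untreated MTF2 ESC (19.3 to 23.9 TPM). For Rspo1 and Rnf43 SUZ12 NPC with auxin was the highest group of all 16, without overlap with the next. Lgr5 had its 8 NPC groups above its 8 ESC groups, SUZ12 NPC with auxin being the lowest of the NPC groups at 1.01 TPM.

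After the mean of each stage was removed, the patterns of Sp5, Tcf7, Notum, Lef1 and Rspo1 over the 16 groups were alike. Pearson r was 0.98 for Sp5 with Tcf7, 0.93 for Tcf7 with Notum, 0.91 for Sp5 with Notum, 0.90 for Notum with Rspo1 and for Sp5 with Lef1, and 0.63 for Lef1 with Rspo1. Axin2 was less like them, at 0.48 with Lef1, 0.28 with Tcf7, 0.26 with Sp5, 0.20 with Notum and -0.13 with Rspo1. Nkd1 was at -0.40 with Sp5 and -0.49 with Lef1. Over 13916 genes tested in both stages, the genes most like each member were Ptpn6 for Sp5 (r = 0.987), Dnajb13 for Tcf7 (0.991), Sowahb for Notum (0.974), Nfkbia for Lef1 (0.958), Rasd2 for Rspo1 (0.954), AI464131 for Nkd1 (0.940), Hexdc for Axin2 (0.867) and Gm5176 for Znrf3 (0.832). None of these closest genes is a member, and how many genes are as alike was not counted, so the likeness is not shown to be particular to the members. These are descriptions over group means that share libraries, and SUZ12 NPC with auxin is the farthest group for several of the members.

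The rest of the pathway, 91 genes in 7 lists, of which 77 were tested in NPC, also moved in SUZ12 NPC. With auxin 34 were called higher and 27 lower, or 38 and 24 with median-of-ratios scaling, where 56.9% of all genes were called. Of the 70 that pass the filter without the SUZ12 auxin libraries 27 were higher and 27 lower. Of the 13 WNT ligands tested 11 were higher and 2 lower (8 and 2 of the 10 that pass the filter without the SUZ12 auxin libraries), with a median log2 fold change of 1.63, or 1.16 over those 10, against -0.10 over all genes tested. Wnt6 averaged 14 ± 0.57 TPM in SUZ12 NPC with auxin (SD, n = 2) and 0.157 ± 0.15 TPM without it (SD, n = 3), while Wnt7a, a ligand of the developing neural tube, averaged 3.15 and 32.4 TPM. Rspo3, another R-spondin, averaged 7.24 TPM with auxin and 0.336 TPM without it (log2 fold change 3.28), and Lgr6 was higher too (1.36). Both passed the filter through the SUZ12 auxin libraries alone, where they are high, so their tests are not independent of the filter. Of the 4 R-spondin and LGR genes tested, 1 passes the filter without those libraries, and that gene was lower.

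Receptors and secreted inhibitors were mixed in SUZ12 NPC. Of 15 receptors and co-receptors 7 were called higher and 3 lower (10 and 3 with median-of-ratios scaling), with Ror1 higher (2.15) and the Frizzled receptors Fzd3 (-2.09) and Fzd9 (-1.87) lower. Of 10 secreted inhibitors 5 were higher and 4 lower, among them Sost, which encodes sclerostin (2.79), and Sfrp1, a soluble Frizzled-like protein, which averaged 50.1 TPM with auxin and 418 TPM without it. The cytoplasmic and nuclear machinery was mostly lower. Called lower were 8 of 13 genes of signal transduction and the destruction complex, led by Apc2 (-2.35). So were 7 of 11 other TCF factors and nuclear partners, such as the co-repressor Tle3 (-0.89). The median log2 fold changes of these lists were -0.30 and -0.43, against -0.10 over all genes tested. In these 2 lists 2 and 1 genes were called higher. Of all genes tested 23.9% were called higher and 33% lower, or 30.5% and 26.1% with median-of-ratios scaling. Of 11 other WNT targets 5 were higher, including Myc at 75.2 TPM with auxin against 19.4 TPM without it, and 2 lower (4 and 2 of the 10 that pass the filter without the SUZ12 auxin libraries).

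**Figure D4:**
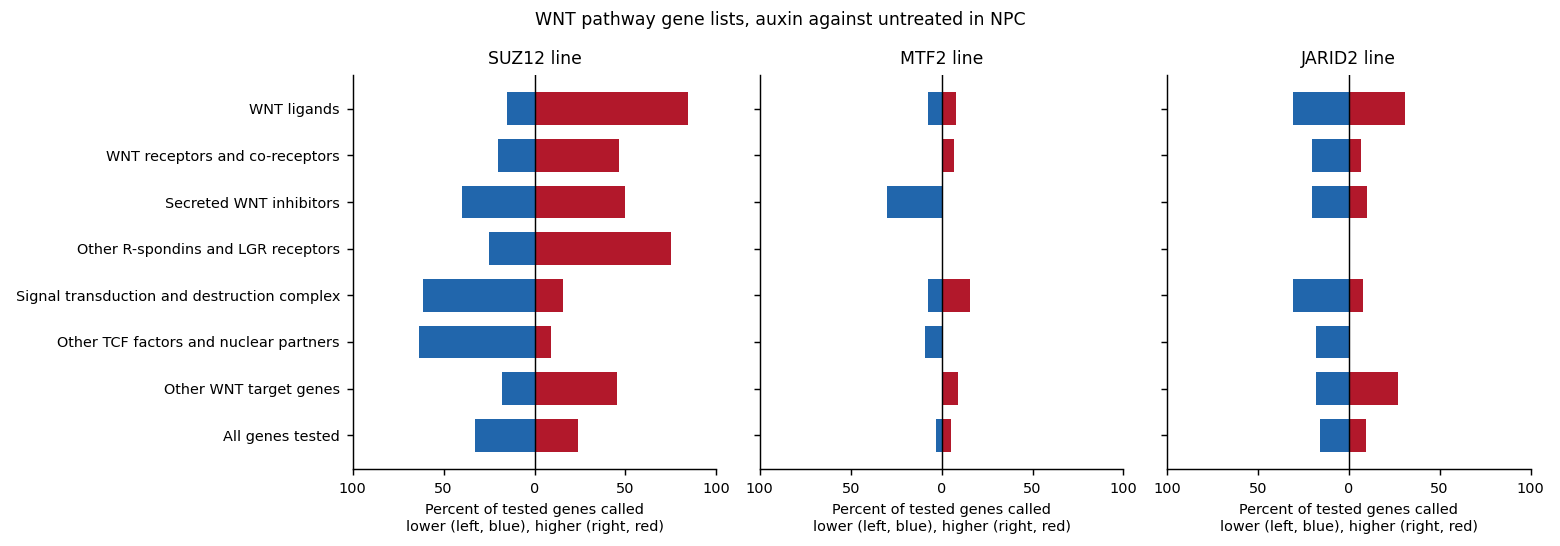
Percent of tested genes called lower (left, blue) and higher (right, red) in auxin against untreated NPC for 7 WNT pathway lists and for all genes tested, in the SUZ12, MTF2 and JARID2 lines. In the SUZ12 line 11 of 13 ligands are called higher. Called lower are 8 of 13 signal transduction genes and 7 of 11 other TCF factors and nuclear partners. Of all genes tested in that line 23.9% are called higher and 33% lower.

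In MTF2 NPC 5 of these 77 genes were higher and 6 lower with auxin, where 8.14% of all genes were called. In JARID2 NPC 10 were higher and 17 lower (14 and 16 with median-of-ratios scaling), where 25% of all genes were called, and in untagged NPC 0 were called. Wnt7a was lower in the SUZ12 line (-3.19), the MTF2 line (-0.55) and the JARID2 line (-1.25), and so was Apc2 (-2.35, -0.33 and -1.19 in the same order). Ccnd1, a cyclin gene among the other targets, averaged 183 TPM in JARID2 NPC with auxin and 355 TPM without it. In SUZ12 ESC 13 of 65 tested were higher and 0 lower, where 6.83% of all genes were called, but 7 higher and 4 lower after median-of-ratios scaling; Sp8 (1.26) and Cdx2 (0.79), both in the list of other targets, were called either way. Of the same 65 genes 1 was higher and 2 lower in MTF2 ESC, where 1.09% of all genes were called. The counts were 0 and 1 in JARID2 ESC (0.298% of all genes) and 0 in untagged ESC (0.212%).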

How the data were processed

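Polyadenylated RNA of 47 mouse libraries was made into strand-specific libraries by the dUTP method, per the labels' protocols. The authors deposited 1 table of TPM values per gene symbol and library; each library summed to 1000000. Alignment was to mm10 with STAR 2.6.1d, per the submitters' processing notes, while the counter, its strand setting and the annotation were not given in the sources used here. Opposite-strand genes that share exon bases with Axin2, Lef1 and Notum in GENCODE M21 could therefore add reads. For MTF2 and JARID2 NPC the titles say day 0 and the remaining labels say NPC with 5 days of treatment, which was followed.

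Whole reads were recovered from the TPM steps for 100% of genes above 0, within 0.001 of a whole number. Libraries held 3.24 to 8.71 M such reads (M, 1000000; median 5.39 M), and read-based intervals and floors cover counting error only.

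The test was limma 3.58.1 (R 4.3.3, robust and trended eBayes) on log2(TPM + 0.5) for genes reaching 1 TPM in 2 or more libraries of the fit, which held the 8 groups of 1 stage, or all 16 groups for the comparison of stages. P-values are two-sided and adjusted by Benjamini-Hochberg over all genes tested, and the script was tested on simulated data. Of the 10 members 8 passed the filter in ESC and 10 in NPC. The rule was to name all members in every comparison, though those not called are in places covered by a count, and of the other pathway genes at most 3 per list, those called with the largest fold change; a few of these are given. Replicate numbers did not pair the libraries. The members, pathway lists and marker lists were chosen with earlier results of these data known. The alternatives were a pseudocount of 0.1 or 1, testing without the filter, scaling by median-of-ratios, a replicate block, a fit of the compared groups alone, leaving out each library and, added after seeing the data, voom on the recovered reads. Promoters are RefSeq's on GRCm38.p6, 250 bases before the outermost start listed there, which for Nkd1 and Rnf43 lies inside the gene of GENCODE M21. A sequence was found for 7 of 10 members.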

Additional observations from a re-analysis of the deposited data

Results flagged for a closer look

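A group of results stood out because the auxin effect in NPC differed between lines in a test of the difference itself, with values as differences of log2 fold changes. Beyond the untagged line, the SUZ12 effect was 4.58 for Sp5, 3.75 for Notum, 2.71 for Rspo1, 2.27 for Lef1, 1.77 for Tcf7, 1.32 for Rnf43 and -1.13 for Lgr5. The JARID2 effect beyond the untagged line was 1.37 for Lef1, 0.65 for Tcf7 and -0.60 for Nkd1, and the MTF2 effect was 1.60 for Notum. Rnf43 was tested in NPC through the SUZ12 auxin libraries alone, where it is high.

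Between the SUZ12 and MTF2 lines the effect differed by 3.70 for Sp5, 2.15 for Notum, 1.68 for Rnf43, 1.37 for Lef1, 1.28 for Tcf7, -1.05 for Lgr5 and -0.47 for Nkd1. The Rnf43 call ended with a pseudocount of 0.1 (adjusted p = 0.0519), and Rspo1 was called with a pseudocount of 1 (1.10, adjusted p = 0.0107). The Nkd1 call ended under median-of-ratios scaling (-0.30, adjusted p = 0.156), by voom (-0.30, adjusted p = 0.144), in the compared groups alone (adjusted p = 0.0599), and without SUZ12 untreated replicate 2, SUZ12 auxin replicate 2, MTF2 untreated replicate 2 or MTF2 auxin replicates 1 or 2 (adjusted p 0.062 to 0.159). That of Lgr5 ended under the same scaling (-0.92, adjusted p = 0.062), without the filter (adjusted p = 0.0508), and without SUZ12 untreated replicates 2 or 3, SUZ12 auxin replicate 1, MTF2 untreated replicate 2 or MTF2 auxin replicates 1 or 3 (adjusted p 0.0564 to 0.197).

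Between the SUZ12 and JARID2 lines the effect differed by 3.78 for Sp5, 2.85 for Notum, 1.72 for Rspo1, 1.47 for Rnf43, 1.11 for Tcf7 and -1.45 for Lgr5. Lgr5 was not called without SUZ12 auxin replicate 1 (adjusted p = 0.0638), nor Rnf43 without SUZ12 untreated replicate 1 or JARID2 auxin replicate 2 (adjusted p = 0.058 and 0.0546). With a pseudocount of 0.1 Rspo1 (1.69, adjusted p = 0.142) and Rnf43 (adjusted p = 0.0856) were not called, which leaves 4 called members. Nkd1 was called under median-of-ratios scaling and by voom (0.43 and 0.46, adjusted p = 0.0484 and 0.0488). The MTF2 and JARID2 lines differed by 0.82 for Nkd1. These tests share libraries, and summed ESC and neuron markers differed between the same groups; their part was not tested.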

How the results depend on the processing

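Of 59 called member values 36 kept their call under every alternative and 22 lost it under at least 1; the remaining 1, Rnf43 in SUZ12 NPC, could not be tested without either SUZ12 auxin library, where it fails the filter. No called value changed sign. The numbers of called members that moved by more than 1.5 times were few. In SUZ12 ESC 2 members in place of 1 were called with the replicate block, in the fit of the compared groups alone and by voom. In JARID2 ESC 0 in place of 1 were called in the compared groups alone and by voom. Untreated SUZ12 against untagged ESC gave 1 in place of 0 by voom, and untreated JARID2 against untagged ESC gave 0 in place of 2 in the compared groups alone. Beyond the untagged line in MTF2 NPC, 0 in place of 1 were called with a pseudocount of 0.1, in the compared groups alone and by voom, and 2 with a pseudocount of 1. Untreated JARID2 against untagged NPC gave 5 in place of 3 by voom. The cause was not tested. Leaving out 1 library gave 0 to 1 called members in JARID2 ESC, 1 to 2 in untreated JARID2 ESC, 3 to 5 in JARID2 NPC, 0 to 1 beyond the untagged line in MTF2 NPC, 0 to 1 in untreated MTF2 NPC (Nkd1, without MTF2 replicate 2) and 6 to 7 in SUZ12 NPC; where this leaves 1 SUZ12 NPC auxin library, it is assumed to vary like the other groups. Replicate numbers did not pair the libraries (r of same-numbered deviations -0.06 to 0.07 in ESC and -0.05 to 0.09 in NPC), and beside SUZ12 ESC the replicate block ended 1 member call, Notum in JARID2 NPC (adjusted p = 0.0504).

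All-gene counts above 1 in the main test moved by more than 1.5 times as follows. Fitting the compared groups alone gave 33 in place of 164 in MTF2 ESC, 8 in place of 45 in JARID2 ESC, 731 in place of 1340 in MTF2 NPC, 508 in place of 953 in untreated JARID2 ESC, 1023 in place of 1588 between the MTF2 and JARID2 lines, 152 in place of 230 beyond the untagged line in MTF2 NPC and 12 in place of 29 in SUZ12 ESC. Voom gave 2283 in place of 1031 in SUZ12 ESC, 54 in place of 32 in untagged ESC, 186 in place of 29 beyond the untagged line in SUZ12 ESC, 574 in place of 249 and 338 in place of 134 in untreated SUZ12 ESC and NPC. The block with library-name numbers gave 378 in place of 230 beyond the untagged line in MTF2 NPC. Leaving out 1 library took the count to as few as 351 of 1031 in SUZ12 ESC (without SUZ12 untreated replicate 2; 5 of 6 libraries moved it over 1.5 times), 85 of 164 in MTF2 ESC (auxin replicate 2; 4 of 6), 18 of 32 in untagged ESC (untreated replicate 3; 4 of 6), 0 of 29 beyond the untagged line in SUZ12 ESC (SUZ12 untreated replicate 2; 11 of 12), 67 of 249 in untreated SUZ12 ESC (untagged replicate 1; 6 of 6), 789 of 1340 in MTF2 NPC (untreated replicate 2; 3 of 6), 126 of 230 beyond the untagged line in MTF2 NPC (untagged untreated replicate 2; 4 of 12), 81 of 134 in untreated SUZ12 NPC (SUZ12 replicate 1; 4 of 6) and 760 of 1443 in untreated MTF2 NPC (untagged replicate 3; 2 of 6). Counts of 0 or 1 gene (beyond the untagged line in MTF2 and JARID2 ESC, and untagged NPC) became 0 to 2 under these omissions. Depth limits Lgr5 and Rnf43 in ESC and Sp5, Notum and Rspo1 in untreated NPC, which rest on a few reads per library.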
